A study of Homo sapiens with 6 samples.

Results

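NRF2 antioxidant genes were followed in UWB1.289, an established line of human ovarian carcinoma that lacks BRCA1 function, after 24 h with the PARP inhibitor Olaparib or with DMSO as its vehicle. The set was a list of 9 genes given by name: NFE2L2, KEAP1, NQO1, HMOX1, GCLM, GCLC, TXNRD1, SRXN1 and ME1. All 9 were found among the 63677 gene identifiers of the count table, and all 9 entered the test, having passed the filter of more than 10 summed counts. The Olaparib group held 3 samples and the DMSO group 3, each from dishes of its own, and no untreated or otherwise treated samples were analysed here. The sample labels and the study's methods state a dose of 4 µM, but 10 µM is written in the description of the series' design. The labels write the genotype as WT, although this line is known for its BRCA1 defect, and both groups share it. All samples come from this single line, so the values describe its transcripts only.

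NRF2, the protein made from NFE2L2, is a transcription factor that switches on genes for detoxification and for the upkeep of glutathione, thioredoxin and NADPH. In unstressed cells KEAP1 holds NRF2 and hands it to a ubiquitin ligase, so NRF2 is mostly controlled as a protein and its transcript need not change when its activity does. When KEAP1 is modified by oxidants or electrophiles, NRF2 builds up, pairs with small MAF proteins and binds antioxidant response elements (AREs) near its target genes, from which BACH1 can be displaced. In ovarian and other carcinomas this pathway is known for its part in drug tolerance.

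An ARE core reads TGACNNNGC, or GCNNNGTCA on the other strand. The members' RefSeq promoter windows (GRCh38.p14, 250 bases before to 50 after a start site, 11 windows for all members but HMOX1) were searched for it on both strands. It was present in 5 of the 11 windows (45.5%), against 13.3% of all 35116 windows. For other NRF2 target genes the share was 21.6% (8 of 37 windows). Across the 7 related lists described below it ran from 4.17% to 26.3%, with the highest share for ATF4 target genes. The windows with a match were those of TXNRD1 (both of its starts), GCLM, ME1 and 1 of the starts of KEAP1. From each, 1 site is shown as an example of the element. Each is written 5′ to 3′ on the strand of its gene, with the core in capitals.
TXNRD1, chr12:104215670-104215698, plus strand: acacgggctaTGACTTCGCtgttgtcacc
TXNRD1, chr12:104286920-104286948, plus strand, the downstream start: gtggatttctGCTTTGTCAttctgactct
GCLM, chr1:93909446-93909474, minus strand: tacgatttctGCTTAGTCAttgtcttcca
ME1, chr6:83431170-83431198, minus strand: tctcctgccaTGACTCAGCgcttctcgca
KEAP1, chr19:10502784-10502812, minus strand: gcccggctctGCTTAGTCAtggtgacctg
The cores shown for GCLM and KEAP1 are the same 9 letters, and that of the downstream TXNRD1 start reads GCTTTGTCA in its place. Further matches in the windows of TXNRD1, ME1 and KEAP1 are not printed in full. That of KEAP1 has a different core, TGACACGGC. No core was found in the windows of NFE2L2, GCLC, NQO1 and SRXN1. Bases outside the windows were not searched, so an element further from a start site would be missed. A match is only a match of letters, and binding was not measured.

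Poly(A) RNA was sequenced to between 35360458 and 39640775 counts per sample. Epithelial markers were abundant, with a summed level of 472393 to 496805 normalized counts with Olaparib against 466802 to 482951 with DMSO, and PAX8, MUC16 and SOX17 were expressed. WT1, a marker of many serous ovarian carcinomas, had 8 counts in total. Of 12 markers of other cell types, 7 passed the filter, PECAM1 and LUM were listed at 0 (whether the PECAM1 identifier could take up reads in the counting is not known), and the sum of the list was 3386 to 3557 after Olaparib and 3451 to 3565 after DMSO. In this sum CDH5 and COL1A2 took most of the counts. PAX8 (log2 fold change 0.10, adjusted p = 0.0399 from edgeR's test) and the endothelial marker VWF (0.68, adjusted p = 0.0106) rose after Olaparib, and their part in the results below was not tested. Among the 7 tested markers of other cell types 4 had a log2 fold change above 0 and 3 below, and VWF was the only 1 called. At an unadjusted p under 0.05 from edgeR's test 3 of these 7 were higher and 0 lower. Of the 6 epithelial markers 4 were higher and 0 lower by the same cut, with 0 called. Over all genes tested 7.83% were higher and 6.97% lower unadjusted, and 3.36% were called.

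Among the 9 members, TXNRD1 fell, and the differences of the other 8 did not pass the test. Calls rest on a Benjamini-Hochberg adjusted p under 0.05 over all genes, from the quasi-likelihood test of edgeR, by which 730 of the 21729 genes tested were called (3.36%, with 1.21% lower and 2.15% higher). None of the members was higher by this test, and at an unadjusted p under 0.05 there were 3 lower (TXNRD1, GCLC and NQO1) and 0 higher, where 6.97% of all genes tested were lower and 7.83% higher. DESeq2's Wald test and limma voom also called TXNRD1 alone. The median log2 fold change of the 9 members was -0.05, with 2 above 0 and 7 below, and over all genes tested it was -0.0042. The 3 Olaparib samples did not overlap the 3 DMSO samples in 4 members, above in KEAP1 and below in NQO1, GCLC and TXNRD1. Groups did not overlap in 19.3% of all genes tested. Lower counts in bulk RNA can come from fewer cells that make a transcript or from less of it per cell, and these cannot be told apart. No single gene can reach a p below 0.1 in an exact permutation test of 3 samples against 3, so the calls come from the fit over the whole table.

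**Figure D1:**
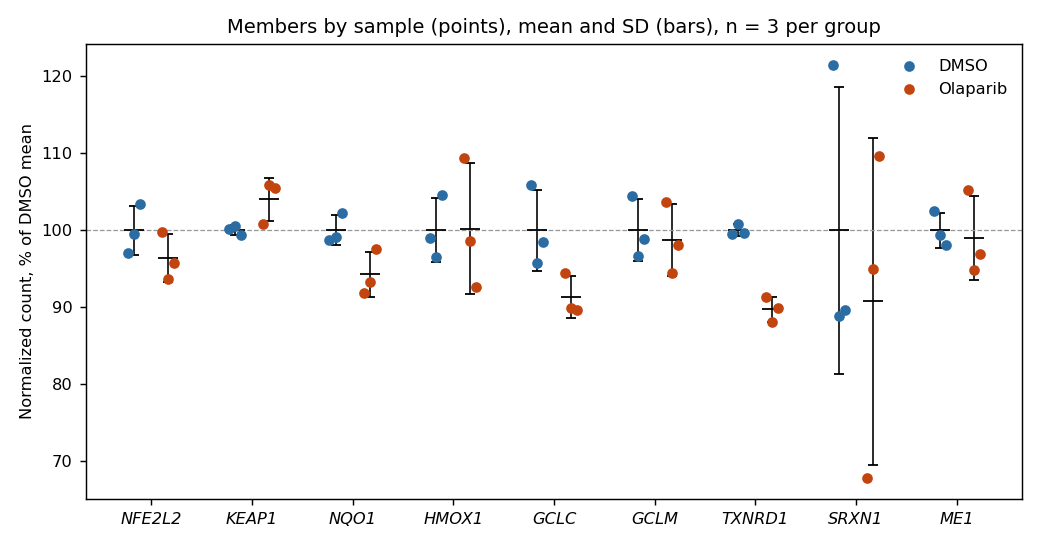
Normalized count of each member as a percent of its DMSO mean (vertical axis) in the 3 DMSO (blue) and 3 Olaparib (orange) samples, with the mean and SD as bars. All Olaparib samples of TXNRD1 lie below all DMSO samples, whereas the points of HMOX1, GCLM, SRXN1, ME1 and NFE2L2 overlap.

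TXNRD1 (ENSG00000198431, chromosome 12, 104215779 to 104350307 on GRCh38) encodes the cytosolic thioredoxin reductase, the selenoenzyme that uses NADPH to keep thioredoxin reduced. It had 51389, 49578 and 50617 normalized counts in the Olaparib samples and 55997, 56785 and 56115 in the DMSO samples. Every Olaparib sample was below every DMSO sample, and the difference between the group means was larger than the spread within either group. Group means were 50528 ± 909 (Olaparib) and 56299 ± 425 (DMSO), each with the SD over n = 3. TXNRD1 thus fell by 10.3% (95% interval -13.5% to -6.91%), which is -0.16 on the log2 scale, with a standard error of 0.026 and an adjusted p of 1.9e-04 from edgeR's quasi-likelihood test. In the 13 other fits the log2 fold change lay between -0.17 and -0.14 and the adjusted p was at most 0.00524. The change was smaller than the 1.2-fold that the study's results also ask for, and with that condition no member was called. The study's methods state a larger fold threshold. With this many counts small differences can pass the test: of the 639 genes with a mean of at least 10000 normalized counts, 64 were called (10.0%), 19 of them lower (2.97%).

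SRXN1 (ENSG00000271303, chromosome 20, 646615 to 653200), which encodes sulfiredoxin, the enzyme that repairs overoxidized peroxiredoxins, could barely be measured. Its normalized counts were 34.4, 48.2 and 55.7 after Olaparib and 61.7, 45.1 and 45.5 after DMSO. The groups overlapped, with the lowest value in Olaparib replicate 1 and the highest in DMSO replicate 1. The log2 fold change was -0.13 (95% interval -0.51 to 0.25, adjusted p = 0.819 from edgeR's test), and it was 0.0428 without Olaparib replicate 1, 0.0281 without DMSO replicate 1 and -0.29 without Olaparib replicate 3. On the current annotation 90.7% of its exonic bases are shared, on the same strand, by another protein-coding gene, ENSG00000270299, which had 0 counts in all samples. Reads on bases that belong to more than 1 gene may not have been assigned, so the level and the change of SRXN1 are uncertain.

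Glutathione synthesis starts with the enzyme formed by GCLC, its catalytic subunit, and GCLM, the modifier subunit that raises its efficiency. GCLC (ENSG00000001084, chromosome 6, 53497341 to 53616970) had 1382, 1315 and 1310 normalized counts with Olaparib, against 1547, 1399 and 1440 with DMSO. The groups did not overlap, although Olaparib replicate 1 and DMSO replicate 2 lay close together. The mean was 1336 ± 39.9 after Olaparib and 1462 ± 76.5 after DMSO (SD, n = 3 each), and the log2 fold change was -0.13 (standard error 0.046, unadjusted p = 0.0075, adjusted p = 0.125 from edgeR's test). That difference did not pass the threshold, nor did it with any 1 sample left out, where edgeR's adjusted p ran from 0.0573 without Olaparib replicate 1 to 0.488 without DMSO replicate 1. GCLM (ENSG00000023909, chromosome 1, 93885199 to 93909456) had 4230, 3853 and 4004 normalized counts with Olaparib, against 4261, 3944 and 4034 with DMSO. In both groups replicate 1 was the highest sample and replicate 2 the lowest, and the groups overlapped almost fully. Its log2 fold change was -0.02 (95% interval -0.10 to 0.06, adjusted p = 0.89 from edgeR's test), and it was 0.01 without Olaparib replicate 2 and 0.02 without DMSO replicate 1. In percent, this interval, which is not adjusted for multiple testing, runs from -6.39% to 4.23%.

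NQO1 (ENSG00000181019, chromosome 16, 69706996 to 69726668) encodes the quinone reductase that is the usual readout of NRF2 activity. It had 5382, 5466 and 5716 normalized counts with Olaparib, against 5780, 5805 and 5988 with DMSO. All Olaparib samples were below all DMSO samples, by a narrow margin. The mean was 5521 ± 173 after Olaparib and 5858 ± 114 after DMSO (SD, n = 3 each), and the log2 fold change was -0.09 (standard error 0.032, unadjusted p = 0.0129, adjusted p = 0.168 from edgeR's test). A lncRNA on the opposite strand, ENSG00000261602, shares 19.4% of the exonic bases of NQO1 and had 0 counts. HMOX1 (ENSG00000100292, chromosome 22, 35380361 to 35394214) encodes heme oxygenase 1, which opens the heme ring and answers to BACH1 and stress factors as well as NRF2. Its normalized counts were 147, 132 and 124 after Olaparib and 133, 129 and 140 after DMSO. The groups overlapped and their means were almost equal, 134 ± 11.4 and 134 ± 5.56 (SD, n = 3 each). The log2 fold change was 0.0018 (adjusted p = 0.994 from edgeR's test), and its sign turned with the fit, from -0.06 without Olaparib replicate 1 to 0.05 without Olaparib replicate 3. The 95% interval of its change, not adjusted for multiple testing, runs from -14.2% to 16.8%, so changes within that range remain possible.

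**Figure D2:**
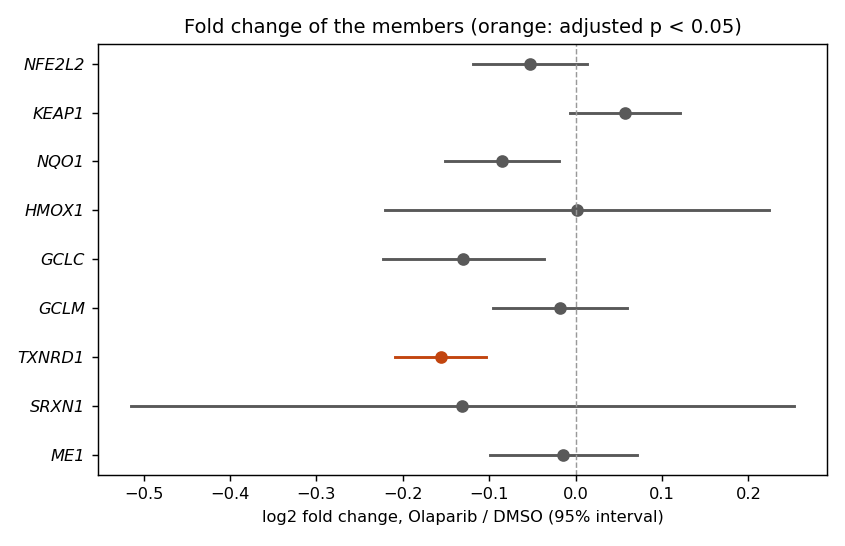
Log2 fold change of Olaparib over DMSO for each member (points) with its 95% interval from edgeR's quasi-likelihood fit, not adjusted for multiple testing (lines). The interval of TXNRD1 runs from -0.21 to -0.10, those of NQO1 and GCLC also lie below 0 before adjustment, and those of SRXN1 and HMOX1, the members with the fewest counts, are the widest.

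The transcripts of NRF2 and its inhibitor did not pass the test. NFE2L2 (ENSG00000116044, chromosome 2, 177218667 to 177392756) had 6539, 6144 and 6275 normalized counts with Olaparib, against 6363, 6524 and 6777 with DMSO. Olaparib replicate 1 lay within the DMSO range and the other Olaparib samples lay below it. The log2 fold change was -0.05 (95% interval -0.12 to 0.01, adjusted p = 0.484 from edgeR's test), and it was -0.0324 without Olaparib replicate 2 and -0.0298 without DMSO replicate 3. The exons annotated for NFE2L2 overlap those of HNRNPA3 on the opposite strand by 23.4% of their bases and those of a lncRNA on the same strand by 13.6%. HNRNPA3 had 17854 to 20443 counts, and the strand setting of the counting is not given in the sources used here, so the part of these reads that came from NFE2L2 is uncertain. KEAP1 (ENSG00000079999, chromosome 19, 10486125 to 10503558) had 6064, 6368 and 6345 normalized counts with Olaparib, against 6026, 6049 and 5976 with DMSO. Every Olaparib sample was above every DMSO sample, with Olaparib replicate 1 only just so. The mean was 6259 ± 169 after Olaparib and 6017 ± 37.4 after DMSO (SD, n = 3 each), with a log2 fold change of 0.06 (95% interval -0.01 to 0.12, adjusted p = 0.413 from edgeR's test).

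ME1 (ENSG00000065833, chromosome 6, 83210402 to 83431051) encodes the cytosolic malic enzyme, a source of NADPH. Its normalized counts were 2640, 2381 and 2432 after Olaparib and 2573, 2495 and 2461 after DMSO. Olaparib replicate 1 was the highest of the 6 samples and the other Olaparib samples were the lowest. The log2 fold change was -0.01 (95% interval -0.10 to 0.07, adjusted p = 0.925 from edgeR's test), and it was 0.02 without Olaparib replicate 2 and 0.0056 without DMSO replicate 1.

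**Figure D3:**
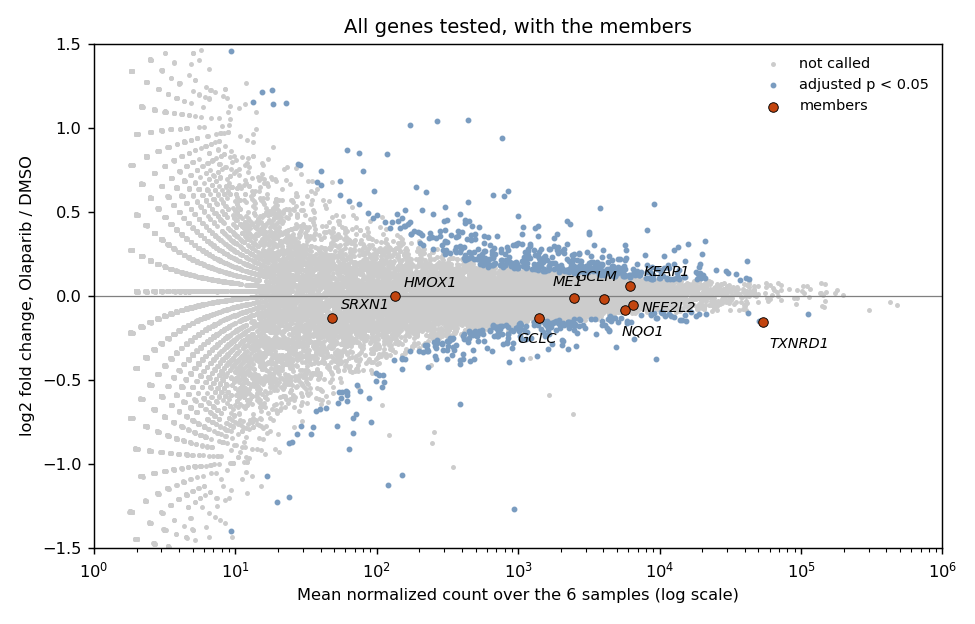
Log2 fold change of Olaparib over DMSO against the mean normalized count over the 6 samples (log axis) for the genes tested, with genes called at an adjusted p under 0.05 in blue and the members in orange. TXNRD1 is the member with the highest mean count and the only member called, and 206 genes with a log2 fold change beyond 1.5 in size are outside the plot.

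Levels were compared between genes per length, as TPM, the share of a gene among all transcripts after division by length, over the union of each gene's annotated exons. TXNRD1 was the most abundant member, with 731 ± 15.1 TPM after Olaparib and 818 ± 11.6 after DMSO (SD, n = 3 each), and ranked 126 among all genes of the annotation by its mean over the 6 samples. NQO1 followed with 192 ± 2.08 TPM after DMSO and KEAP1 with 164 ± 3.05. ME1 (73.3 ± 2.76) and GCLM (73.3 ± 3.88) came next, and their DMSO values overlapped, so their order is not resolved. Then came NFE2L2 (42.7 ± 0.784), GCLC (16.6 ± 1.08), HMOX1 (5.67 ± 0.202) and SRXN1 (1.96 ± 0.395), all in TPM after DMSO. The other neighbours in this order did not overlap among the DMSO samples. The place of NFE2L2 rests on its length: its annotated exons cover 14975 bases, but its canonical transcript only 2446, and over canonical lengths it was the second most abundant member with 153 ± 2.81 TPM after DMSO. With these lengths the DMSO values of KEAP1 (134 ± 2.45) and NQO1 (133 ± 1.18) overlapped, and the catalytic subunit GCLC (22.1 ± 1.4) remained below the modifier GCLM (47.7 ± 2.43).

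**Figure D4:**
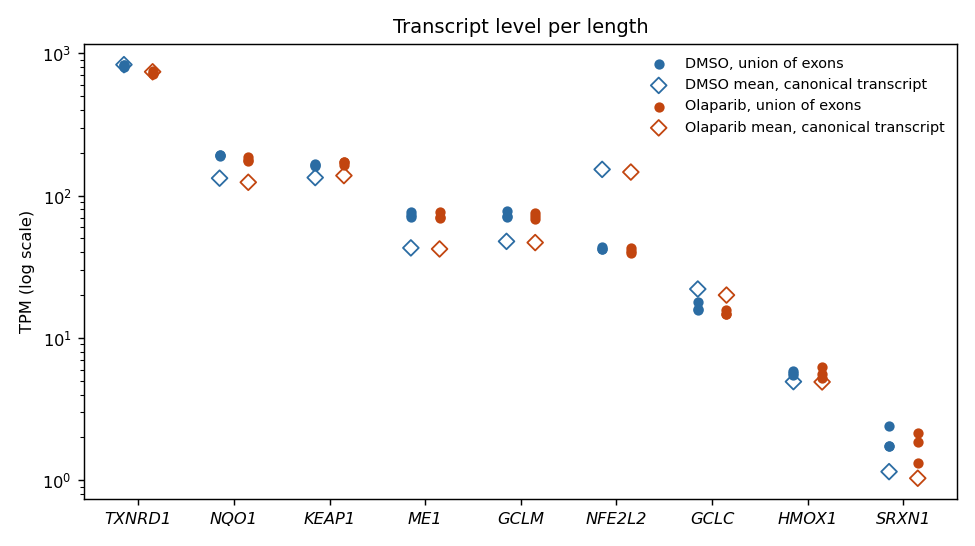
Level of each member in TPM (log axis) in the 3 DMSO (blue) and 3 Olaparib (orange) samples over the union of exons (points), and the group means over the canonical transcript (diamonds). TXNRD1 lies near 775 TPM on average, SRXN1 near 1.87, and NFE2L2 moves from 41.8 to 150 when the canonical length is used.

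The 3 genes whose log2 normalized counts were most like those of TXNRD1 over the 6 samples were EEF1A1P5 (Pearson's r = 0.991), IGIP (r = 0.99) and DTL (r = 0.989), out of 11989 genes whose mean reached 100 counts. An r of at least 0.95 was found for 112 genes, and all points share the same 6 libraries and fall into the same 2 groups. Since the genes were chosen for this pattern, their levels are given as a description with no test. DTL, which encodes the substrate receptor of a ubiquitin ligase that acts in S phase, had a mean of 1441 normalized counts after Olaparib and 1795 after DMSO. IGIP had 160 and 196, in the same order. EEF1A1P5 had 75.8 and 165, and as a pseudogene that can share reads with its parent gene its counts are uncertain.

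The other genes of the pathway were read from 7 lists by role. Of 39 other NRF2 target genes 37 were tested, of which 1 rose and 3 fell (9 lower and 1 higher at an unadjusted p under 0.05). Over all genes tested 2.15% rose and 1.21% fell (6.97% lower and 7.83% higher unadjusted). Their median log2 fold change was -0.05, the same as that of the members to 2 decimals. ABCC3, a drug and bile salt exporter, fell from 2835 ± 157 to 2305 ± 9.96 normalized counts (log2 fold change -0.30, standard error 0.041, adjusted p = 1.2e-05 from edgeR's test) and was called in all 13 other fits. NMRAL2P, a pseudogene, fell from 172 ± 24.8 to 127 ± 12.8 (log2 fold change -0.44, adjusted p = 0.0246 from edgeR's test), and TRIM16L fell from 621 ± 30.7 to 517 ± 23.2 (log2 fold change -0.27, adjusted p = 0.003 from edgeR's test). All exonic bases of NMRAL2P and TRIM16L overlap other annotated genes, so their counts are uncertain. NMRAL2P lost its call without Olaparib replicate 2 or 3 or DMSO replicate 1 or 2, with adjusted p values of 0.0512 to 0.163 (edgeR), and by DESeq2 (0.0805), and TRIM16L lost it without DMSO replicate 2 (adjusted p = 0.0541, edgeR). BLVRB, a biliverdin reductase, rose from 499 ± 18.8 to 582 ± 11.5 (log2 fold change 0.22, adjusted p = 0.0135 from edgeR's test). Its call was lost without Olaparib replicate 3 or DMSO replicate 1 or 2 (adjusted p of 0.0653 to 0.117, edgeR) and by DESeq2 (0.0818). For SLC7A11, the cystine importer, the log2 fold change was -0.07 (adjusted p = 0.479 by edgeR), and for SQSTM1, the autophagy receptor that binds KEAP1, it was -0.09 (adjusted p = 0.0723).

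No call was made by edgeR's test in 3 of the lists, where 3.36% of all genes tested were called. At an unadjusted p under 0.05, 7.83% of all genes tested were higher and 6.97% lower. Among 17 NRF2 partners and regulators, which include the small MAF genes, BACH1 and CUL3, there were 0 calls and a median of 0.0083, with 1 higher and 3 lower at an unadjusted p under 0.05. Among 30 tested glutathione genes there were 0 calls and a median of -0.02, with 3 higher and 2 lower unadjusted. Among 17 tested genes for thioredoxins, peroxiredoxins and the clearance of reactive oxygen there were 0 calls and a median of 0.02, with 3 higher and 1 lower unadjusted. TXN, the substrate of TXNRD1, was one of these, at 0.04 on the log2 scale (adjusted p = 0.571, edgeR). TXNIP and GSTA1 were listed at 0 in every sample, and GPX2, ADH7 and SOD3 had 2, 1 and 5 counts in total, so no change could be measured for these 5 genes. Whether the TXNIP identifier could take up reads in the annotation used for counting is not known, so its 0 is not read as absence of the transcript. SOD2 had no match in the count table and was not analysed here.

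In the remaining 3 lists the called genes were all higher after Olaparib. At an unadjusted p under 0.05 there were 4 higher and 0 lower among the NADPH supply genes, 3 higher and 1 lower among the heme and iron genes, and 6 higher and 2 lower among the ATF4 targets. By the same cut, 7.83% of all genes tested were higher and 6.97% lower. Of 14 NADPH supply genes 1 was called: IDH2, the mitochondrial NADP-dependent isocitrate dehydrogenase, rose from 5131 ± 115 to 5762 ± 186 normalized counts (log2 fold change 0.17, standard error 0.033, adjusted p = 0.00187 from edgeR's test) and was called in all 13 other fits. Of 19 heme and iron genes 2 were called, BLVRB and TFRC, the transferrin receptor, which rose from 27996 ± 1045 to 30987 ± 1910 (log2 fold change 0.15, adjusted p = 0.00681 from edgeR's test). The call of TFRC was lost in DESeq2's Wald test (adjusted p = 0.193) and without DMSO replicate 3 (adjusted p = 0.0931, edgeR). Of 14 ATF4 target genes, a stress program that shares SLC7A11 with NRF2, 2 were called, ATF4 itself (log2 fold change 0.12, adjusted p = 0.0158, edgeR) and PHGDH, the entry enzyme of serine synthesis (0.11, adjusted p = 0.028, edgeR). Both lost their calls without Olaparib replicate 2 or 3 or DMSO replicate 1 or 2, with adjusted p values of 0.0618 to 0.199. With each gene counted once, 8 of the 130 tested genes of the 7 lists were called, 5 higher and 3 lower, where 3.36% of all genes were called, 2.15% higher and 1.21% lower. With the 1.2-fold condition 3 of these 8 calls remained, as did 262 of the 730 calls over all genes. That is 3 of the 130 tested list genes, against 1.21% of all genes tested. These were the 3 lower genes, ABCC3, NMRAL2P and TRIM16L, and none of the 5 higher genes passed it. The 8 calls became 13 without Olaparib replicate 1, 4 without Olaparib replicate 3, 5 without DMSO replicate 1 and 3 without DMSO replicate 2.

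**Figure D5:**
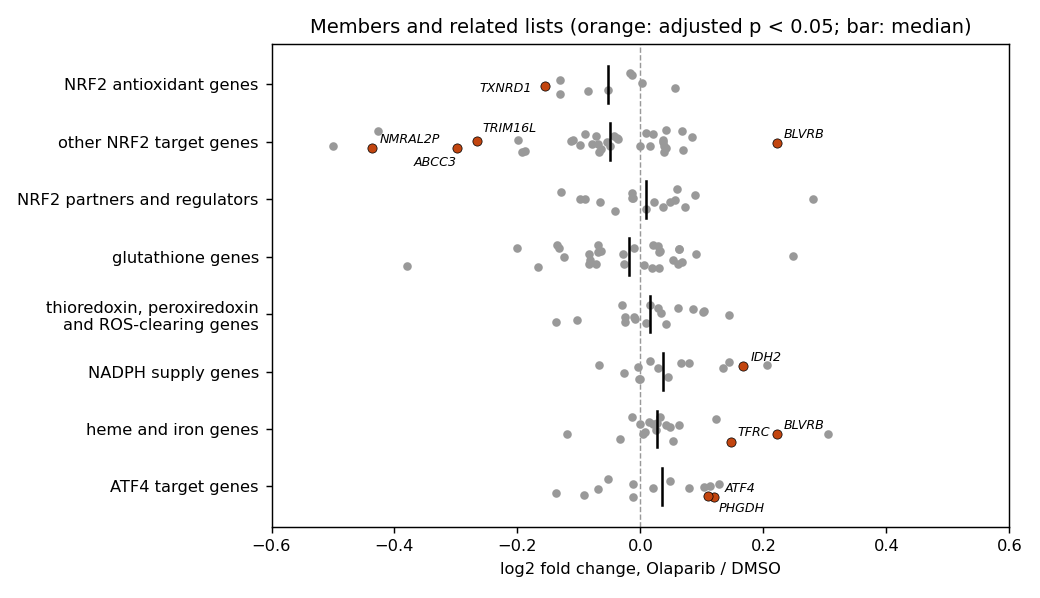
Log2 fold change of Olaparib over DMSO (horizontal axis) for the tested genes of each list (points), with genes called at an adjusted p under 0.05 in orange and the list's median as a bar. The medians lie between -0.05 and 0.04, the called genes of the NRF2 lists are mostly lower, those of the last 3 lists are higher, and AKR1B10 lies outside the plotted range of 0.6 to either side.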

How the data were processed

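Stranded poly(A) libraries from 3 Olaparib and 3 DMSO samples were sequenced. The authors deposited whole-number read counts per gene without normalization. According to the methods of the study, reads were trimmed with Trimmomatic and mapped to GRCh38 with STAR, duplicates were identified with Picard, and reads were assigned to genes with featureCounts; whether duplicates were removed and the strand setting are not given in the sources used here. Samples were matched to groups by their labels. Replicate pairs of 1 group differed by more than sampling noise (chi-square per degree of freedom 1.81 to 4.11 over 15525 genes).

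Genes with more than 10 counts in total were kept and scaled with TMM (factors 0.995 to 1.01), and normalized counts are counts divided by the effective library size relative to its mean. The 2 groups were tested against each other with the quasi-likelihood method of edgeR 4.0.16 in R 4.3.3, with Benjamini-Hochberg adjustment over all genes kept; limma 3.58.1 and DESeq2 1.42.0 were alternatives. Symbols, coordinates and lengths came from GENCODE 44 on GRCh38, which held 52181 of the 63677 identifiers. The 0.561% to 0.6% of counts without an entry were left out of TPM. Intervals cover these samples only.

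The members and lists were chosen with earlier results of these data known. Named were all members, every list gene called (at most 6 per list and direction), list genes with 10 counts or fewer, and the 3 genes most like the member with the smallest p. SLC7A11, SQSTM1 and TXN were named after their values were seen.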

Additional observations from a re-analysis of the deposited data

How the results depend on the processing

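Other settings were DESeq2, limma voom, other scalings and filters, the 1.2-fold condition, the replicate number as a block and leaving out each sample. The member calls did not move with tool, scaling, filter or left-out sample: 1 (TXNRD1) in each. With the 1.2-fold condition there were 0 and with the block 3. The counts over all genes were 262 with the 1.2-fold condition, 1322 with the block and 398 to 870 with a sample left out, against 730 (870 without Olaparib replicate 1, 439 without Olaparib replicate 3, 398 and 401 without DMSO replicate 2 and 3). Calls lower over all genes were 156 by DESeq2 against 263. For the pathway lists the calls were 14 without a filter, 18 with the block, 3 with the 1.2-fold condition and 3 to 13 with a sample left out, against 8. The median TPM of the members was 72.7 over the union of exons and 47.3 over canonical transcripts, a comparison added after seeing the data; the files hold no gene length, so the planned comparison of lengths was not run.

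Same-numbered samples did not deviate together (correlations of -0.153, 0.185 and -0.214 over 13121 genes), and not every sample correlated best with its own number, so the replicate block pairs samples by number only. With the block, NQO1 (log2 fold change -0.09, adjusted p = 0.0385 in edgeR) and GCLC (-0.13, adjusted p = 0.0415) were called beside TXNRD1.

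The log2 fold change of HMOX1 was -0.0012 with limma voom, -0.0072 with upper-quartile scaling, -0.0004 with filterByExpr and -0.0001 with the replicate block, and -0.0639 to 0.0544 with a sample left out. With a sample left out it was -0.0523 to 0.0162 for GCLM, -0.29 to 0.0428 for SRXN1 and -0.0583 to 0.0157 for ME1. The cause was not tested. SRXN1 and HMOX1 had the fewest counts and the widest intervals of the members.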
